A study of Mus musculus with 12 samples.

Results

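The genes described here encode the enzymes of the tricarboxylic acid (TCA) cycle, of pyruvate and malate oxidation and of glutamate and aminotransferase metabolism, with 3 of their carriers. They were chosen by enzyme function, as a list of 36 genes. Of these, 33 genes had a probe set of their own, among 15858 genes measured, and they were covered by 67 of the 32533 probe sets. By role they comprised 15 TCA cycle genes, 10 genes of pyruvate and malate, 5 of glutamate and the aminotransferases and 3 of transport. The expression of the other members, Pdk4, Gls2 and Mpc2, was not analysed here.

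RNA was hybridised to 12 Affymetrix arrays for the mouse, with 3 per group. All 4 groups started from bone marrow cells of C57BL6 mice made immortal with HoxA9, a homeobox protein that maintains the growth of myeloid progenitors. Cells of the first 3 groups were transduced with an empty vector, with pSF91-IDH1wt-IRES-EGFP (IDH1wt) or with pSF91-IDH1mut-IRES-GFP (IDH1mut), and were then given to irradiated recipients. The R-2HG group received empty vector cells, and these recipients were given 1 mg of R-2HG daily over 4 weeks. After 4 weeks GFP-positive marrow cells were sorted, so the cells of every group carried a retroviral vector and also HoxA9. For the R-2HG samples the description gives the vector as that of IDH1mut. Their remaining fields and the study's design give an empty vector, and that reading was used. The R-2HG group is thus set apart from the empty vector group by the R-2HG given to the recipients. The labels do not give the promoter of the vector, the mutated residue, the age of the animals or the number of clones, nor whether each replicate is a mouse of its own. The p-values therefore reflect only how far these samples spread, and that spread may be technical.

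The TCA cycle oxidises acetyl-CoA in the mitochondrial matrix and passes electrons to the respiratory chain. Acetyl-CoA enters it from pyruvate through the pyruvate dehydrogenase complex, and 2-oxoglutarate enters it from glutamate through glutamate dehydrogenase and the aminotransferases. Mutant IDH1 reduces 2-oxoglutarate to R-2-hydroxyglutarate (R-2HG), so these enzymes make and consume the substrate of the mutant enzyme. Proliferating myeloid cells are known to use the cycle both for energy and as a source of aspartate, citrate and glutamate.

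The deposited values are log2 values centred on 0 for each probe set, so a value gives the position of an array relative to the others and not an expression level. The level of one gene cannot be compared with that of another, and the labelled cell type could not be checked from the presence or absence of markers. Taken over all probe sets, the SD of the difference between a pair of arrays was 0.176 to 0.363 within groups and 0.292 to 0.559 between groups. R-2HG replicates 1 and 2 were the closest pair of all, and both stood apart from replicate 3, at 0.351 and 0.363. In R-2HG replicates 1 and 2 the 11 mast cell, basophil and eosinophil markers had medians of -2.81 and -2.73 relative to the empty vector mean, against 0.35 in replicate 3. The median of 10 erythroid markers lay at -0.83 and -0.85 in R-2HG replicates 1 and 2 and at 0.72 in replicate 3. It was 0.85, 1.17 and 1.05 in IDH1mut and -0.27, 1.00 and 0.41 in IDH1wt, against -0.02 to 0.13 in empty vector. Of these 10 markers 3 were called higher in IDH1mut than in empty vector (30%, beside 10.5% of all genes). Against R-2HG 8 were called higher in IDH1mut (80%, beside 20.3%). The median of 12 neutrophil markers was higher than in every empty vector array in all R-2HG arrays (0.26 to 0.47) and all IDH1mut arrays (0.37 to 0.47). The 5 primary granule markers were all called lower in both R-2HG and IDH1mut, beside 24.3% and 12.1% of all genes. Their array medians were -0.67 to -0.25 in R-2HG and -0.89 to -0.84 in IDH1mut, against -0.06 to 0.06 in empty vector. Of 10 stem and progenitor markers 6 were called lower in R-2HG (60%, beside 24.3% of all genes) and none higher (beside 16.5%). Their medians were -0.74, -0.71 and -0.47 in R-2HG replicates 1 to 3. In IDH1mut 4 were called lower (40%, beside 12.1%) and 3 higher (30%, beside 10.5%). The 11 B cell markers lay at -1.18, -1.20 and -0.62 in R-2HG replicates 1 to 3 but ranged from -0.41 to 0.80 within empty vector. Against empty vector 4 were called lower in R-2HG (36.4%, beside 24.3% of all genes). Against R-2HG 9 were called higher in IDH1mut (81.8%, beside 20.3%). The 13 monocyte and dendritic markers were at -0.67, -0.68 and 0.08 in R-2HG replicates 1 to 3. The part of these cell mixtures in the results below was not tested. Mouse Idh1 had log2 fold changes of -0.16 ± 0.11 in IDH1wt and -0.06 ± 0.11 in IDH1mut against empty vector (adjusted p = 0.525 and 0.744). The labels do not say whether the mouse probe sets cover the vector's transcript, so this checks nothing about the vectors.

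In the R-2HG group, genes of the TCA cycle, of the pyruvate dehydrogenase complex and of glutamate metabolism were lower than in empty vector, led by Fh1, Suclg2 and Glul. A gene is called here when its adjusted p is under 0.05 in a limma fit over all 15858 genes, and 18 of 33 members (54.5%) were called in R-2HG against empty vector, beside 40.8% of all genes. Of these, 17 (51.5%) fell, beside 24.3% of all genes, and 1 (3.03%) rose, beside 16.5% of all genes. The median log2 fold change of the members was -0.21, against 0.003 over all genes. The fallen genes comprised 9 of 15 TCA cycle genes, 4 of 10 pyruvate genes, 3 of 5 glutamate genes and 1 of 3 carriers. In 22 members (66.7%) the R-2HG and empty vector arrays did not overlap, beside 53.5% of all genes. R-2HG lay below in 20 (60.6%, beside 29.8% of all genes) and above in 2 (6.06%, beside 23.7%). In sorted bulk cells, a lower value from fewer cells of a type cannot be told apart from less RNA per cell.

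IDH1mut moved fewer of these genes, and in both directions. Against empty vector 5 of 33 members (15.2%) were called, beside 22.6% of all genes. Me2, Pdk3 and Got1 rose (9.09%, beside 10.5% of all genes), and Sdhc and Gpt2 fell (6.06%, beside 12.1%). Groups did not overlap in 11 members (33.3%), beside 41.1% of all genes. The members' median was -0.06 against -0.05 for all genes. IDH1wt against empty vector gave 0 called members by limma, beside 1.35% of all genes, with 4 members at an unadjusted p under 0.05 and a lowest adjusted p of 0.111. With array weights 2 members were called (6.06%, beside 8.75% of all genes) and with quantile normalization 1 (3.03%, beside 3.29%). Between IDH1mut and IDH1wt, 3 members (9.09%) were called, beside 15.7% of all genes. Without IDH1wt replicate 3, IDH1mut replicate 2 or IDH1mut replicate 3, 1 was called (3.03%, beside 9.89%, 10.3% and 12.1%). Without R-2HG replicate 3, 7 were called (21.2%, beside 18.8%). A test for any difference among the 4 groups called 19 members (57.6%), beside 54.6% of all genes.

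**Figure D1:**
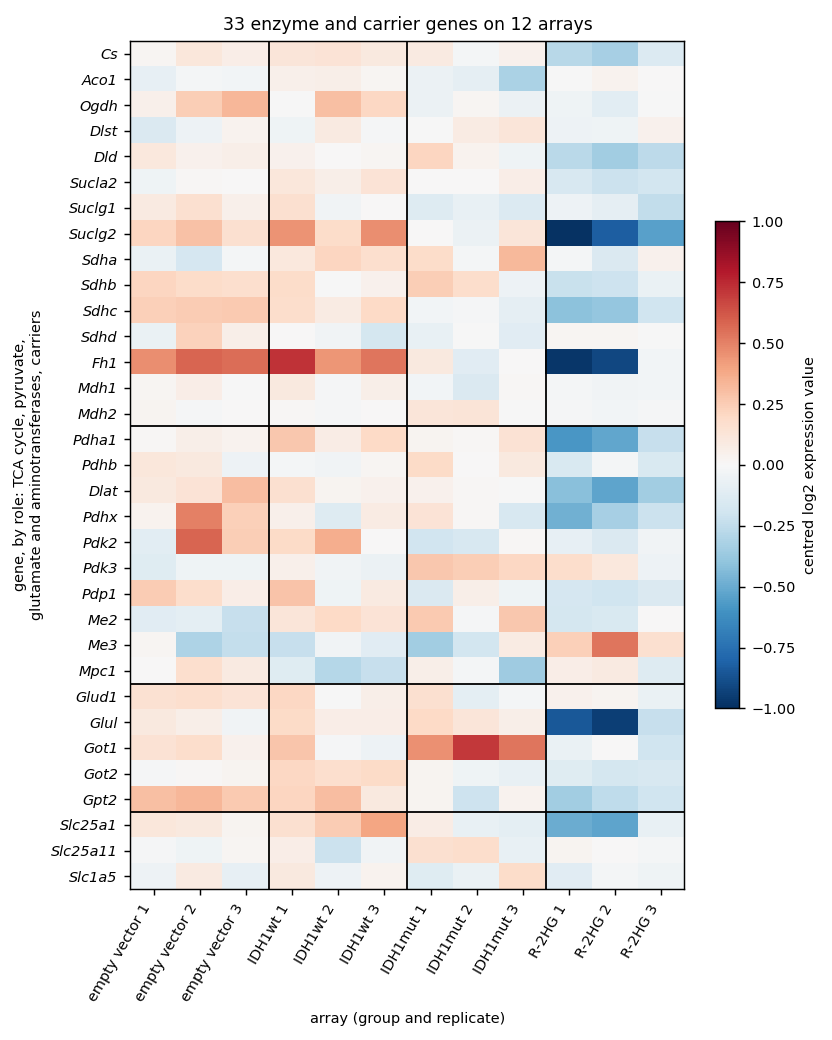
Centred log2 values of the 33 genes (rows, by role from top to bottom: TCA cycle, pyruvate, glutamate and aminotransferases, carriers) on the 12 arrays (columns, by group and replicate). Blue is low and red is high, with the scale cut at -1 and 1. The R-2HG columns are mostly blue, with Suclg2, Fh1 and Glul lowest in replicates 1 and 2 and Suclg2 lowest in replicate 3, and Got1 is reddest in the IDH1mut columns.

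Among the TCA cycle genes the largest fall was that of Fh1, fumarate hydratase, which converts fumarate to malate. Its centred values were 0.47, 0.58 and 0.56 in empty vector, 0.72, 0.44 and 0.53 in IDH1wt, 0.10, -0.12 and 0.00 in IDH1mut, and -0.97, -0.91 and -0.02 in R-2HG. All 3 R-2HG arrays lay below all empty vector arrays, and replicate 3 lay within the range of IDH1mut. Fh1 was 2.26-fold lower in R-2HG than in empty vector (a log2 difference of -1.17 ± 0.20, where the error is the SE of the fit and n = 3 per group, with adjusted p = 0.000795). IDH1mut against empty vector gave -0.54 ± 0.20 with no overlap of arrays, and its adjusted p of 0.0669 missed the threshold. That SE is pooled over all 4 groups, in which the R-2HG arrays had an SD of 0.53 and the others 0.06 to 0.14. Fitted on the 6 arrays of IDH1mut and empty vector alone, the same difference had an adjusted p of 0.00285, and without R-2HG replicate 3 it had 0.000912. Each call was followed over up to 21 alternative settings of the normalization, the model, the probe sets and the arrays used. None required a minimum fold, and a gene dropped by a filter on the SD had no result in that setting. The difference of Fh1 between IDH1mut and empty vector was called in 5 of the 21 settings (adjusted p of 0.000912 to 0.00637). It was not called in the other 16 (0.0511 to 0.17). Without R-2HG replicates 1 and 2 the fall of Fh1 against empty vector was 0.56 (adjusted p = 0.0233). The difference between IDH1mut and R-2HG (0.63 ± 0.20, adjusted p = 0.0273) rested on R-2HG replicates 1 and 2: without them Fh1 differed by 0.02 (adjusted p = 0.954).

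Suclg2, the GTP-forming beta subunit of succinyl-CoA ligase, fell 2.01-fold in R-2HG. Its values were 0.21, 0.29 and 0.16 in empty vector and -0.99, -0.82 and -0.55 in R-2HG, with 0.45, 0.18 and 0.46 in IDH1wt and 0.00, -0.06 and 0.12 in IDH1mut. Each R-2HG array lay below every other array, replicate 3 included. The log2 fold change against empty vector was -1.01 ± 0.11 (adjusted p = 0.000104), and IDH1mut lay 0.80 ± 0.11 above R-2HG (adjusted p = 0.000969). IDH1mut lay below empty vector without overlap, by 0.20 ± 0.11, and this missed the threshold (adjusted p = 0.227). Both probe sets of Suclg2 fell in R-2HG, by 1.09 and 0.93.

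The alternative beta subunit, Sucla2, forms ATP in place of GTP and moved much less. It had a log2 fold change of -0.17 ± 0.06 in R-2HG (adjusted p = 0.0344). Its R-2HG arrays, at -0.16, -0.21 and -0.18, were close together and below the empty vector arrays at -0.04, 0.01 and 0.00. The shared alpha subunit Suclg1 had a log2 fold change of -0.23 ± 0.08 (adjusted p = 0.0343). The calls of Sucla2 and Suclg1 were lost in 10 and 9 of the alternative settings that tested them. Within each array, Suclg2 minus Sucla2 was 0.26, 0.28 and 0.16 in empty vector and -0.83, -0.61 and -0.36 in R-2HG. The groups did not overlap, and the two-sided exact permutation test gave p = 0.1, the smallest that 3 against 3 arrays can give, so this difference could not pass a threshold of 0.05.

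Succinate dehydrogenase links the cycle to the respiratory chain, with Sdha and Sdhb as its catalytic part and Sdhc and Sdhd as its membrane anchor. Sdhc fell in both IDH1mut and R-2HG. It measured 0.24, 0.25 and 0.26 in empty vector, 0.18, 0.08 and 0.20 in IDH1wt, -0.03, -0.01 and -0.09 in IDH1mut and -0.41, -0.38 and -0.20 in R-2HG. The arrays of each group thus lay wholly below those of the group named before it. R-2HG differed from empty vector by -0.58 ± 0.07 on the log2 scale (adjusted p = 0.000152), IDH1mut did so by -0.29 ± 0.07 (adjusted p = 0.0111), and IDH1mut lay above R-2HG by 0.29 ± 0.07 (adjusted p = 0.0106). The 2 probe sets of Sdhc differed in R-2HG, with -1.07 ± 0.11 in 1448630_a_at and -0.09 ± 0.08 in 1435986_x_at. The gene's value thus averages a large and a small difference. In IDH1mut the 2 probe sets gave -0.44 and -0.15, and 1 of them was called.

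Sdhb, the iron-sulfur subunit, also fell in R-2HG, by 0.35 ± 0.09 (adjusted p = 0.00724). The gene means of Sdha, the flavoprotein subunit, and Sdhd were not called in any comparison. Sdha had 0.04 ± 0.09 in R-2HG and 0.25 ± 0.09 in IDH1mut (adjusted p = 0.0746), and its 4 probe sets ranged from -0.27 to 0.34 in R-2HG. By gene mean, 2 of the 4 subunit genes thus fell in R-2HG, 1 of them in IDH1mut. By probe set, 1 of the 4 of Sdha and 1 of the 2 of Sdhd were also called lower in R-2HG. Those of Sdhd gave -0.21 and 0.08.

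Cs, citrate synthase, which condenses acetyl-CoA with oxaloacetate, fell in R-2HG by 0.31 ± 0.07 (adjusted p = 0.00407). Dld, the E3 subunit shared by the pyruvate and 2-oxoglutarate dehydrogenase complexes, fell by 0.36 ± 0.07 (adjusted p = 0.00238). For both genes IDH1mut stayed within 0.03 of empty vector and lay above R-2HG, by 0.29 ± 0.07 and 0.36 ± 0.07. Ogdh, the E1 subunit of the 2-oxoglutarate dehydrogenase complex, had a difference of -0.26 ± 0.09 in R-2HG (adjusted p = 0.0411), a call lost in 9 of 21 settings. In IDH1mut it had -0.24 ± 0.09 (adjusted p = 0.0817). No call was made for Dlst, the E2 subunit of that complex, for the cytosolic aconitase Aco1, or for the malate dehydrogenases Mdh1 (cytosolic) and Mdh2 (mitochondrial). The log2 fold changes of these 4 genes in R-2HG lay between -0.05 and 0.05, and those in IDH1mut between -0.11 and 0.12.

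**Figure D2:**
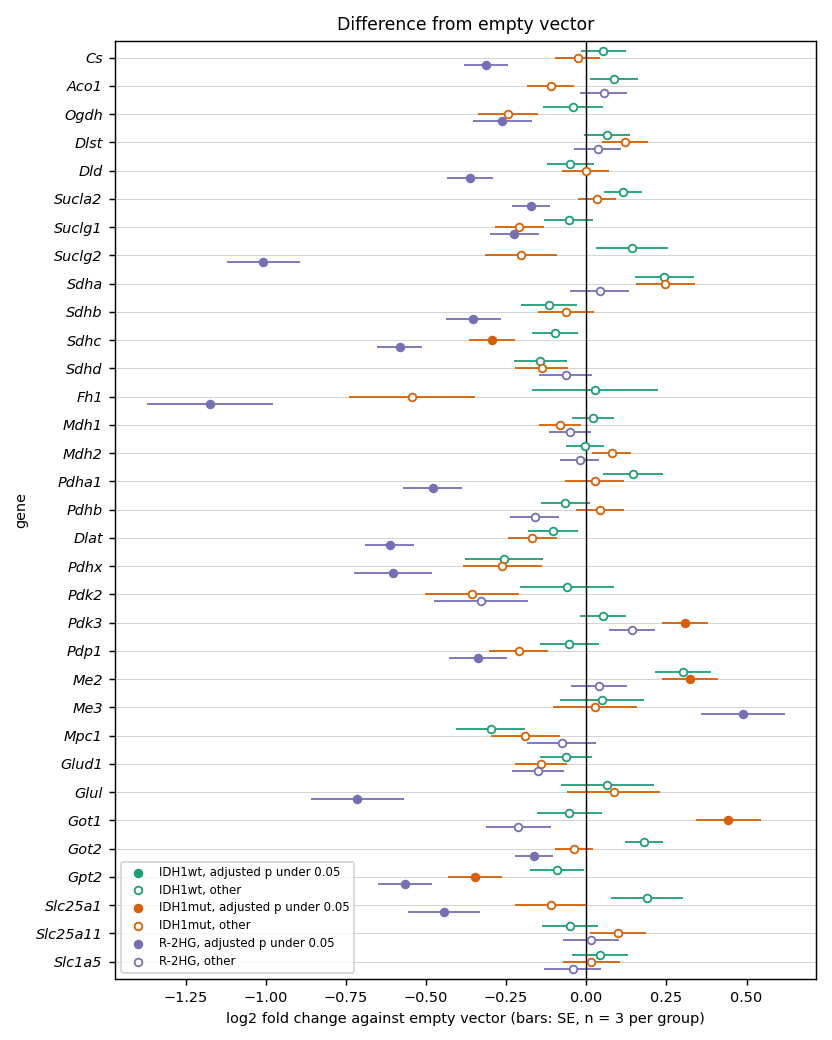
Log2 fold change against empty vector (horizontal axis) for each of the 33 genes (vertical axis, by role), in IDH1wt, IDH1mut and R-2HG. Bars are SEs with n = 3 per group, and filled points have an adjusted p under 0.05. The 3 contrasts share the empty vector arrays. Fh1 and Suclg2 reach -1.17 and -1.01 in R-2HG, Got1 is the highest IDH1mut point at 0.44, and no IDH1wt point is filled.

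Promoter sequence was available for 31 of the 36 listed genes, as a window of 300 bases from 250 before to 50 after the annotated start (RefSeq, GRCm38.p6). Pdk4 and Mpc2, whose expression was not analysed, are among these 31. The 100 bases before the start are given for the pair of beta subunits that moved unequally, Suclg2 at chr6:95718847-95718946 on the minus strand and Sucla2 at chr14:73552686-73552785 on the plus strand. They are also given for the gene with the largest fall, Fh1, at chr1:175625636-175625735 on the minus strand, and for Sdhb, at chr4:140961171-140961270 on the plus strand. Capitals in Sdhb mark the letters GCATGCGC, the core of the binding site of NRF1, a factor known for nuclear genes of mitochondrial proteins.
Suclg2: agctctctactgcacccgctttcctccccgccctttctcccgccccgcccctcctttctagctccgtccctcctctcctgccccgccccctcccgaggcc
Sucla2: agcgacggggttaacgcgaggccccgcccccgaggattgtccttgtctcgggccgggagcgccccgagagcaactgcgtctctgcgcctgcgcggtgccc
Fh1: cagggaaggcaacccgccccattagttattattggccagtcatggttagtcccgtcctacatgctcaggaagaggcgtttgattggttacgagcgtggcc
Sdhb: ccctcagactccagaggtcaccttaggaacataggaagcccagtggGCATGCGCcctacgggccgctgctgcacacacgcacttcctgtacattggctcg
The Suclg2 and Sucla2 stretches were alike in base composition, with 71% and 73% G or C, while Fh1 had 54% and Sdhb 61%. The match in Sdhb begins at position -54 relative to the annotated start. On either strand of the 300 base window, GCATGCGC was found in 3 of 31 members (9.68%, Glud1, Ogdh and Sdhb), beside 3.05% of all 27025 genes in the table. AAGGTCA, the letters bound by the ERR receptors, was found in Got1, Ogdh and Sdhd, again 9.68%, beside 5.38% of all genes. CACGTG, the E-box, was found in Ogdh, Pdk2 and Slc25a1, beside 8.09%. A gene was counted when any of its windows held the letters. These short matches are a description of the sequence, and Suclg2 and Fh1, the members with the largest falls, hold none of the 3 in this window.

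The pyruvate dehydrogenase complex fell in several subunits in R-2HG. Dlat, its E2 acetyltransferase, had values of 0.10, 0.14 and 0.31 in empty vector and -0.42, -0.53 and -0.35 in R-2HG. IDH1wt lay at 0.16, 0.03 and 0.05 and IDH1mut at 0.04, 0.01 and -0.01, so that the R-2HG arrays were the lowest of the 12, replicate 3 included. Dlat fell by 0.61 ± 0.08 against empty vector (1.53-fold, adjusted p = 0.000171) and was called in each of 21 settings. Its 3 probe sets fell alike, by 0.56 to 0.64.

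Pdhx, which holds the E3 subunit on the E2 core, measured 0.04, 0.50 and 0.24 in empty vector, 0.05, -0.13 and 0.08 in IDH1wt, 0.14, 0.01 and -0.16 in IDH1mut and -0.48, -0.34 and -0.22 in R-2HG. The R-2HG arrays were again the lowest, and the empty vector arrays were spread more widely than for Dlat. R-2HG differed from empty vector by -0.60 ± 0.12 (adjusted p = 0.00248) and IDH1mut from R-2HG by 0.34 ± 0.12 (adjusted p = 0.047). The latter call was lost in 12 of 21 settings.

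Pdha1, the E1 alpha subunit and the target of the regulating kinases, measured 0.01, 0.06 and 0.03 in empty vector and -0.58, -0.52 and -0.23 in R-2HG. IDH1wt, at 0.27, 0.08 and 0.20, and IDH1mut, at 0.03, 0.01 and 0.14, showed no such fall. The log2 fold change in R-2HG was -0.48 ± 0.09 (adjusted p = 0.00191), and IDH1mut exceeded R-2HG by 0.51 ± 0.09 (adjusted p = 0.00289). The partner subunit Pdhb had a mean of -0.16 ± 0.08 in R-2HG and was not called (adjusted p = 0.109). Its 2 probe sets gave -0.24 and -0.09, and 1 of them was called lower.

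The regulators of the complex did not move as a group. Pdk3, a kinase that inactivates Pdha1 protein, rose in IDH1mut by 0.31 ± 0.07 against empty vector (adjusted p = 0.00929) and by 0.26 ± 0.07 against IDH1wt (adjusted p = 0.0317). Its IDH1mut arrays, at 0.27, 0.25 and 0.21, were above all other arrays. Against IDH1wt its call was lost in 7 of the settings that tested it. Pdk2, another kinase of this family, had -0.36 ± 0.15 in IDH1mut and -0.33 ± 0.15 in R-2HG, neither called, and its empty vector arrays ranged from -0.10 to 0.58. Without empty vector replicate 1 Pdk2 was called in both, with adjusted p = 0.0142 in IDH1mut and 0.0102 in R-2HG. Pdp1, the phosphatase that reactivates the complex, fell in R-2HG by 0.34 ± 0.09 (adjusted p = 0.0115).

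Me2 and Me3, the mitochondrial malic enzymes that convert malate to pyruvate, moved in different groups. Me2 rose in IDH1mut by 0.32 ± 0.09 (adjusted p = 0.0191), a call lost without empty vector replicate 3 (0.28, adjusted p = 0.0813), IDH1mut replicate 1 (0.28, adjusted p = 0.0641) or IDH1mut replicate 3 (0.28, adjusted p = 0.0731). In IDH1wt its difference was of like size, 0.30 ± 0.09, but not called (adjusted p = 0.111), and IDH1mut against IDH1wt gave 0.02 ± 0.09. Me3 was the member that rose in R-2HG, with 0.24, 0.54 and 0.16 against 0.02, -0.31 and -0.24 in empty vector (0.49 ± 0.13, adjusted p = 0.0113). Its call was lost without R-2HG replicate 2 (0.38, adjusted p = 0.054) and without empty vector replicate 2 (0.42, adjusted p = 0.0507). With R-2HG replicates 1 and 2 left out together its difference was 0.34, also without a call. Mpc1, a subunit of the mitochondrial pyruvate carrier, was not called, with -0.30 ± 0.11 in IDH1wt as its largest difference from empty vector (adjusted p = 0.196).

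**Figure D3:**
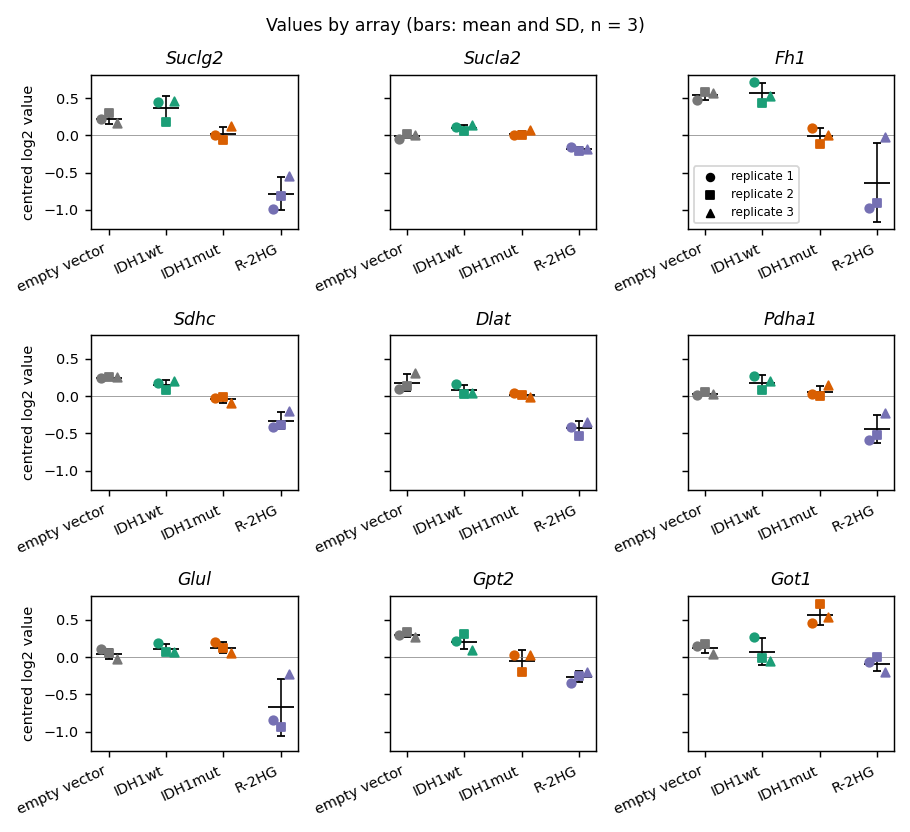
Centred log2 values (vertical axis) of 9 genes in the 4 groups (horizontal axis), 1 point per array, with circle, square and triangle for replicates 1, 2 and 3 and lines for the mean and SD (n = 3). Suclg2 and Dlat are lowest in all 3 R-2HG arrays, Fh1 and Glul are much lower in R-2HG replicates 1 and 2 than in replicate 3, and Got1 is highest in all 3 IDH1mut arrays.

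Among the genes of glutamate metabolism, Glul, glutamine synthetase, which makes glutamine from glutamate and ammonia, had the largest fall in R-2HG. Its values were 0.10, 0.06 and -0.03 in empty vector, 0.19, 0.07 and 0.07 in IDH1wt, 0.20, 0.12 and 0.06 in IDH1mut and -0.85, -0.94 and -0.23 in R-2HG. The 3 R-2HG arrays were the lowest, with replicate 3 far nearer to the other groups. The log2 fold change was -0.71 ± 0.15 (1.64-fold lower, adjusted p = 0.00248), and IDH1mut exceeded R-2HG by 0.80 ± 0.15 (adjusted p = 0.00271). Without R-2HG replicates 1 and 2 these became -0.27 (adjusted p = 0.122) and 0.36 (adjusted p = 0.098).

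Gpt2, the mitochondrial alanine aminotransferase, which makes 2-oxoglutarate and alanine from glutamate and pyruvate, fell in both IDH1mut and R-2HG. It measured 0.30, 0.33 and 0.27 in empty vector, 0.21, 0.31 and 0.10 in IDH1wt, 0.03, -0.20 and 0.03 in IDH1mut and -0.35, -0.25 and -0.20 in R-2HG. All IDH1mut and R-2HG arrays lay below all empty vector and IDH1wt arrays. R-2HG gave -0.57 ± 0.08 (adjusted p = 0.000414) and IDH1mut -0.35 ± 0.08 (adjusted p = 0.011), both called in each of 21 settings, and neither reaches a fold of 1.5. Of its 4 probe sets, 3 fell in R-2HG, by up to 1.03, and 1439029_at measured 0.07 ± 0.11.

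Got1, the cytosolic aspartate aminotransferase of the malate-aspartate shuttle, was the member that rose furthest in IDH1mut. It measured 0.45, 0.71 and 0.53 in IDH1mut, against 0.14, 0.18 and 0.05 in empty vector, 0.28, -0.01 and -0.05 in IDH1wt and -0.07, 0.00 and -0.20 in R-2HG. Every IDH1mut array was above every other array. Got1 exceeded empty vector by 0.44 ± 0.10 (1.36-fold, adjusted p = 0.00793), IDH1wt by 0.50 ± 0.10 (adjusted p = 0.00653) and R-2HG by 0.65 ± 0.10 (adjusted p = 0.00139). These 3 calls held in each of 21 settings, but only that against R-2HG passes a required fold of 1.5. R-2HG lay below empty vector without overlap, but at -0.21 ± 0.10 it was not called (adjusted p = 0.111). Got1 is covered by 1 probe set.

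The mitochondrial partner Got2 gave no single answer. Its mean over 3 probe sets was -0.01, 0.01 and 0.03 in empty vector, 0.21, 0.17 and 0.19 in IDH1wt, 0.03, -0.04 and -0.07 in IDH1mut and -0.12, -0.18 and -0.16 in R-2HG. The R-2HG arrays were the lowest and the IDH1wt arrays the highest. R-2HG against empty vector was called at -0.16 ± 0.06 (adjusted p = 0.0441), a call lost in 14 of the settings that tested it. In that comparison 1417716_at fell by 0.70 ± 0.09 (adjusted p = 0.00023), 1430397_at rose by 0.28 ± 0.09 (adjusted p = 0.036), and 1417715_a_at gave -0.06 ± 0.09. IDH1mut lay below IDH1wt by 0.22 ± 0.06 (adjusted p = 0.0262), which was lost in 6 settings. The mean of Glud1, glutamate dehydrogenase, was not called, with -0.15 ± 0.08 in R-2HG and -0.14 ± 0.08 in IDH1mut. Of its 2 probe sets, 1 was called lower in R-2HG at -0.32 and the other gave 0.02.

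Of the carriers, Slc25a1, which exports citrate from mitochondria, fell in R-2HG by 0.44 ± 0.11 (adjusted p = 0.00854). Its R-2HG arrays were at -0.50, -0.52 and -0.08 and its empty vector arrays at 0.11, 0.09 and 0.03. Replicate 3 thus lay close to empty vector, and without replicates 1 and 2 the difference was -0.16 (adjusted p = 0.428). The oxoglutarate carrier Slc25a11 and the glutamine transporter Slc1a5 were not called, with 0.01 ± 0.09 and -0.04 ± 0.09 in R-2HG. Slc25a1 holds the E-box letters in its promoter window. The first 100 bases of its window, from position -250 on, at chr16:17928370-17928469 on the minus strand of GRCm38.p6, is given with CACGTG in capitals, which begin at position -239.
Slc25a1: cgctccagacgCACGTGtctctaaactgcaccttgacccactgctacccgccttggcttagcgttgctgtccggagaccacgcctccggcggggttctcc

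Directly compared, IDH1mut and R-2HG differed in 15 of 33 members (45.5%), beside 36% of all genes. IDH1mut was higher in 14 of them (42.4%, beside 20.3% of all genes) and lower in 1, Me3 (3.03%, beside 15.8%). The largest differences were those of Suclg2 and Glul, at 0.80 ± 0.11 and 0.80 ± 0.15, followed by Got1 and Fh1. Of these 15 calls, Got1 alone held in each of 21 settings, and some of the others were lost in several settings. Leaving out R-2HG replicates 1 and 2 together left 1 R-2HG array. That array was then assumed to vary like the arrays of the other groups. In that setting Got1 stood at 0.77 (adjusted p = 0.0318), Suclg2 at 0.57 (adjusted p = 0.056) and Dlat at 0.36 (adjusted p = 0.105), and the other 12 had adjusted p values of 0.098 to 0.954. The count of 15 fell to 9 without IDH1mut replicate 1 (27.3%, beside 29.9% of all genes) and to 8 without R-2HG replicate 2 (24.2%, beside 19.6%).

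That setting also bears on R-2HG against empty vector. With R-2HG replicate 3 alone, 5 members were called (15.2%, beside 11.5% of all genes): Suclg2, Sdhc, Fh1, Dlat and Gpt2, the members whose call held in each of 21 settings. Their log2 differences were then -0.77, -0.45, -0.56, -0.53 and -0.50. The calls of Cs (-0.20, adjusted p = 0.197), Dld (-0.33, adjusted p = 0.0821), Sdhb (-0.26, adjusted p = 0.218), Pdha1 (-0.26, adjusted p = 0.134), Pdhx (-0.48, adjusted p = 0.106) and Pdp1 (-0.31, adjusted p = 0.172) ended in this setting and in no other of the 21. The median of the 33 members relative to the empty vector mean was -0.19 in replicate 1, -0.19 in replicate 2 and -0.21 in replicate 3. Replicate 3 lay below all empty vector arrays in 23 of 33 members (69.7%), beside 38.7% of all genes. It was the R-2HG array nearest to the empty vector mean in 18 of 33 members (54.5%), Fh1, Glul, Pdha1 and Slc25a1 among them, the same share as the 54.5% of all genes. Beside these medians, its stem and progenitor, primary granule and B cell markers were low as in the other R-2HG arrays, while its mast cell, erythroid and monocyte markers were not. Their part in the members' values was not tested. In IDH1mut the members' medians were -0.01, -0.05 and -0.10, and in IDH1wt 0.06, -0.04 and 0.00.

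**Figure D4:**
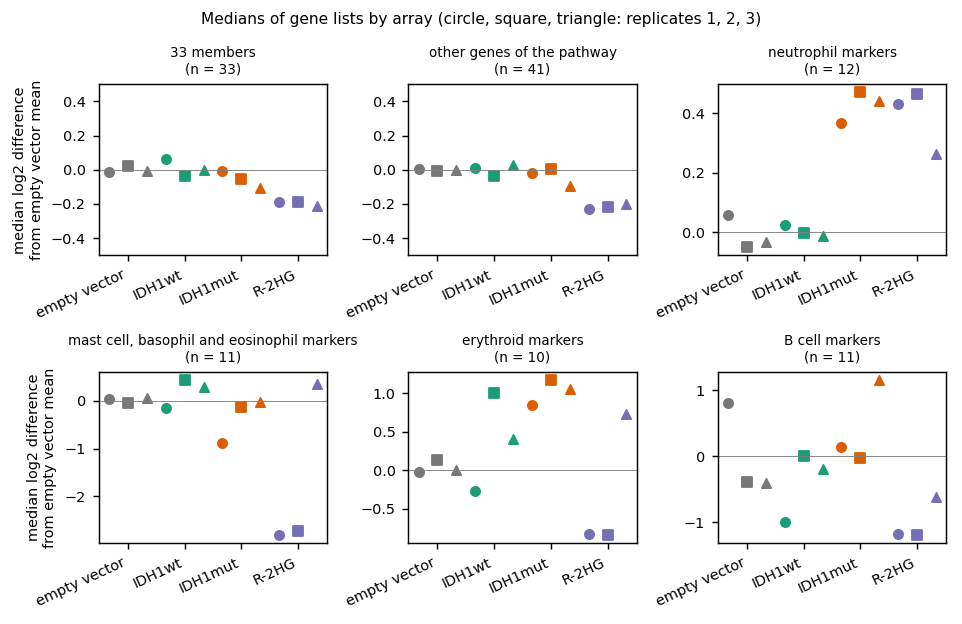
Median over the genes of a list of the log2 difference from the empty vector mean (vertical axes, which differ between panels), for each array (circle, square and triangle for replicates 1, 2 and 3) in the 4 groups. The 33 members lie at -0.19, -0.19 and -0.21 in R-2HG, while the mast cell, basophil and eosinophil markers lie at -2.81, -2.73 and 0.35.

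The averages over probe sets concealed disagreement in several genes. Of the 20 members with over 1 probe set, all probe sets were called in R-2HG against empty vector for 4, some for 12 and none for 4. Of the 67 probe sets, 34 were called in this comparison, beside 39.5% of all 28805 probe sets with 1 gene symbol. In Got2 and Mdh1 probe sets were called in opposite directions. For Mdh1 the gene's mean was 0.02, 0.07 and -0.01 in empty vector, 0.10, -0.01 and 0.06 in IDH1wt, -0.03, -0.14 and 0.01 in IDH1mut and -0.02, -0.03 and -0.02 in R-2HG. The groups were close, and the mean gave -0.05 ± 0.06 in R-2HG (adjusted p = 0.55). Its probe sets 1448172_at and 1436834_x_at fell by 0.41 ± 0.10 and 0.24 ± 0.09 (adjusted p = 0.00516 and 0.045), whereas 1434319_at rose by 0.36 ± 0.12 (adjusted p = 0.0327). No direction can be given for Mdh1.

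**Figure D5:**
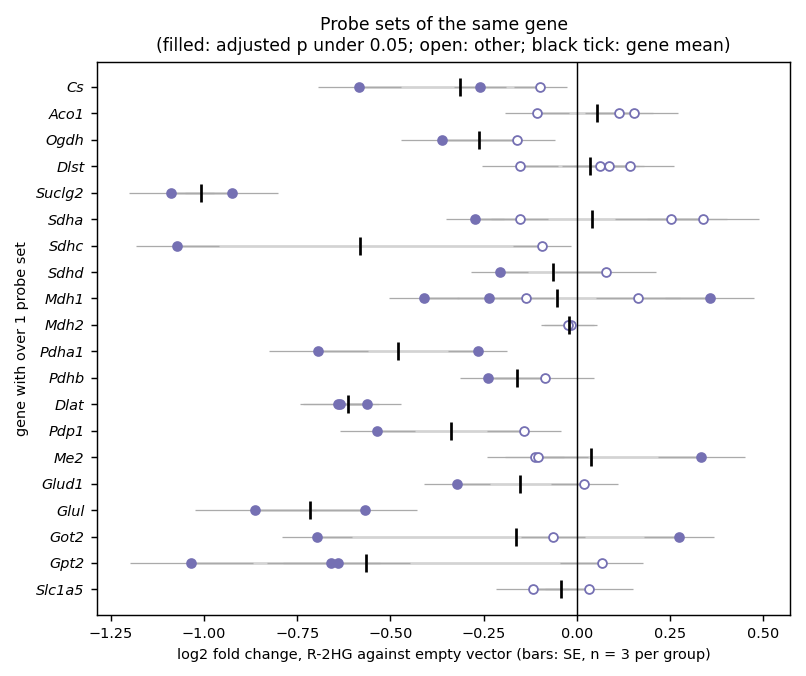
Log2 fold change in R-2HG against empty vector (horizontal axis) of each probe set of the 20 genes with over 1 probe set (vertical axis). Bars are SEs with n = 3 per group, filled points have an adjusted p under 0.05, and the black tick is the gene's mean. The probe sets of Suclg2 and Dlat lie close together, those of Sdhc and Gpt2 up to 1.10 apart, and those of Got2 and Mdh1 on both sides of 0.

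Other genes of the same pathway were read from a separate list, of which 41 were measured. In R-2HG against empty vector 23 of them were called (56.1%, beside 40.8% of all genes), with a median of -0.19. Of these, 19 were lower (46.3%, beside 24.3% of all genes) and 4 higher (9.76%, beside 16.5%). In IDH1mut 11 were called (26.8%, beside 22.6%), 5 lower (12.2%, beside 12.1%) and 6 higher (14.6%, beside 10.5%). In IDH1wt 0 were called, beside 1.35% of all genes. The 6 of smallest p over the 4 groups all fell in R-2HG, and 3 of them are assembly factors of succinate dehydrogenase. Sdhaf3 measured 0.43, 0.67 and 0.66 in empty vector, -0.13, 0.03 and 0.00 in IDH1mut and -0.95, -0.84 and -0.64 in R-2HG. It fell by 1.40 ± 0.11 in R-2HG (adjusted p = 2.64e-05), and by 0.62 ± 0.11 in IDH1mut (adjusted p = 0.00169), and these 3 groups did not overlap. Sdhaf1 fell by 0.88 ± 0.08 in R-2HG (adjusted p = 3.84e-05), where its difference in IDH1mut was -0.21 ± 0.08 (adjusted p = 0.0686). Sdhaf4 fell by 0.88 ± 0.12 in R-2HG (adjusted p = 0.000211), and by 0.36 ± 0.12 in IDH1mut (adjusted p = 0.0447), a call lost in 10 of 21 settings.

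The other 3 were a carrier, a lipoate transferase and a kinase. Slc25a13, a mitochondrial aspartate-glutamate carrier and so a partner of Got1 and Got2 in the malate-aspartate shuttle, fell by 0.95 ± 0.09 in R-2HG (adjusted p = 5.09e-05). Its IDH1mut call, at -0.27 ± 0.09 (adjusted p = 0.0478), was lost in 11 of 21 settings. Lipt2, which attaches the octanoyl group from which the lipoate of the E2 subunits is made, fell by 1.08 ± 0.12 in R-2HG (adjusted p = 0.000109). Pdk1, a further kinase of the pyruvate dehydrogenase complex, fell by 0.60 ± 0.10 in R-2HG (adjusted p = 0.000615), so that among the measured kinases Pdk1 fell in R-2HG while Pdk2 and Pdk3 were not called. In IDH1mut against IDH1wt Pdk1 lay lower by 0.39 ± 0.10 (adjusted p = 0.0168). These 6 genes remained called in R-2HG against empty vector in each of 21 settings. Without R-2HG replicates 1 and 2 their differences ranged from -1.23 for Sdhaf3 to -0.38 for Pdk1.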

How the data were processed

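Total RNA of 12 samples was hybridised to Affymetrix mouse arrays. The authors made the deposited log2 values with RMA, per the submitters' processing notes, which give no version. They are centred per probe set, at most 7 of 12 values lie above or below 0, and every array's median is 0. The reference of the centring is not given in these sources, so no level or signal over background was available. Neither scan dates nor batches were known.

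Of 32533 probe sets, 28805 carried 1 gene symbol in the platform annotation, 757 several and 2971 none, and only the first kind was used. For 28674 of them the gene was found in RefSeq (GRCm38.p6), with 0 symbols changed. A gene's value was the mean over its probe sets, which gave 15858 genes, 8510 with 1 probe set. The linear model came from limma 3.58.1 (lmFit, then eBayes without a trend, under R 4.3.3, with 1 coefficient per group, 8 residual and 3.96 prior degrees of freedom). Tests were two-sided, adjusted by Benjamini-Hochberg over all genes, with a threshold of 0.05. Errors of log2 fold changes are SEs of that fit. Probe sets were fitted the same way.

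Members and lists were chosen with earlier results of these data known. All members are named. Values per array are given for members called with a log2 fold change of at least 0.5 in size, and for those with probe sets called in opposite directions. Of the other pathway genes, the 6 with the smallest F test p are named.

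In simulated data with 200 of 15858 genes changed by 0.5, 1 and 2, the fit recovered 64.2%, 97.0% and 100% for IDH1mut against empty vector. For R-2HG it recovered 56.7%, 92.5% and 97.0%. It called 0.0575% and 0.0383% of unchanged genes. The simulated arrays of a gene all shared 1 spread. In the data 22.6% and 40.8% of all genes were called in these comparisons, and R-2HG replicate 3 stood apart. The rates therefore describe the simulated setting only. Alternatives were quantile normalization, centring of arrays, eBayes with trend, array weights, a replicate block, a filter on the SD at the 30th percentile, fits of 6 arrays, and the probe set with the highest SD. Each array was left out in turn, R-2HG replicates 1 and 2 were left out together, and a fold change of at least 1.5 was required. Single genes were followed over up to 21 settings, which leave out this last one. A gene dropped by the SD filter has no result there.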

Additional observations from a re-analysis of the deposited data

How the results depend on the processing

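Leaving out R-2HG replicates 1 and 2 left 1 array in that group, so calls that involve it are not counted here. In the array that remained, the members' median difference from the empty vector mean was -0.21, beside -0.01 over all genes. IDH1mut and IDH1wt kept 3 arrays each, and 6 members were called between them in place of 3. These were 18.2% of members in place of 9.09%, beside 16.2% of all genes in place of 15.7%. By probe set, 7 were called in place of 3. With all arrays kept, 34 probe sets were called in R-2HG against empty vector and 26 between IDH1mut and R-2HG. A fold change of at least 1.5 left 0 members in IDH1mut (beside 5.86% of all genes) and 5 in R-2HG (15.2%, beside 10.3%) against empty vector. It left 0 in IDH1mut against IDH1wt (beside 3.76%) and 4 against R-2HG (12.1%, beside 6.5%). By probe set it left 0 in place of 9, then 13, 0 and 8. With array weights 9 members were called in IDH1mut against empty vector (27.3%, beside 30.4% of all genes) and 2 in IDH1wt (6.06%, beside 8.75%). In IDH1mut against IDH1wt 7 were called (21.2%, beside 19.5%). By probe set this setting gave 9 in IDH1wt against empty vector and 10 in IDH1mut against IDH1wt. Quantile normalization gave 1 member in IDH1wt against empty vector and 7 in IDH1mut against IDH1wt (2 and 7 probe sets). Fits of 6 arrays gave 9 members for IDH1mut against R-2HG (27.3%, beside 26.6% of all genes) and 2 probe sets for IDH1wt. The SD filter, which left 20 of 33 members to test, gave 1 for IDH1mut against IDH1wt (5.0%, beside 20.2% of the genes left). Leaving out 1 array gave 4 to 7 members for IDH1mut (beside 15.3% to 25.9% of all genes) and 13 to 18 for R-2HG (beside 28.9% to 44.3%) against empty vector. It gave 1 to 7 for IDH1mut against IDH1wt (beside 9.89% to 18.8%) and 8 to 16 against R-2HG (beside 19.6% to 41.0%). By probe set these ranges were 3 to 11, 22 to 34, 1 to 9 and 15 to 27, with 0 to 2 for IDH1wt. Shares of all probe sets are not given for these settings, so the counts by probe set cannot be set against them. The cause of these changes was not tested.

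Mdh1 reversed with the probe set of highest SD, at 0.36 (adjusted p = 0.0325). Samples of the same replicate number did not deviate together (correlations of -0.152 to 0.124), so the numbers were not read as pairs. A replicate block gave 5, 16, 0, 3 and 14 members in the order IDH1mut, R-2HG and IDH1wt against empty vector, IDH1mut against IDH1wt and against R-2HG. In the same order the shares of all genes were 20.5%, 39.0%, 0.927%, 13.7% and 33.7%. The block gave 21 members in the F test and 1 probe set in IDH1mut against IDH1wt.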

Other observations

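Further genes of the pathway list are given here, chosen after their values were seen, and they stand for no group of genes. Of the 41 measured, 6 rose (14.6%, beside 10.5% of all genes) and 5 fell (12.2%, beside 12.1%) in IDH1mut against empty vector. Slc7a11, the cystine-glutamate exchanger, measured 0.71, 0.67 and 0.36 in IDH1mut against -0.15, 0.01 and -0.31 in empty vector, a rise of 0.73 ± 0.12 (adjusted p = 0.00141). Asns, asparagine synthetase, rose by 0.74 ± 0.17 (adjusted p = 0.00722), and Slc16a3, a lactate exporter, by 0.53 ± 0.11 (adjusted p = 0.00447). These 3 genes had 0.19 ± 0.12, -0.05 ± 0.17 and -0.03 ± 0.11 in R-2HG, none of them called, and IDH1mut exceeded R-2HG in each, by 0.54 ± 0.12, 0.79 ± 0.17 and 0.56 ± 0.11. Without R-2HG replicates 1 and 2 these 3 differences were 0.66, 0.40 and 0.52, with adjusted p = 0.0822, 0.234 and 0.114. Gad1, glutamate decarboxylase, rose in both, by 0.65 ± 0.11 in IDH1mut (adjusted p = 0.00141) and 0.42 ± 0.11 in R-2HG (adjusted p = 0.0101).

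In IDH1mut the glutamine carrier Slc38a1 fell by 0.30 ± 0.09 (adjusted p = 0.0351). In R-2HG 19 of the 41 fell (46.3%, beside 24.3% of all genes) and 4 rose (9.76%, beside 16.5%). Aldh18a1, which makes the proline precursor from glutamate, measured -1.02, -1.06 and -0.29 in R-2HG against 0.62, 0.25 and 0.16 in empty vector (-1.13 ± 0.18, adjusted p = 0.000552). Oat, ornithine aminotransferase, fell by 0.39 ± 0.07 (adjusted p = 0.000889) and Prodh, proline dehydrogenase, by 0.50 ± 0.09 (adjusted p = 0.00141), with all 3 R-2HG arrays low in both. Gclc, which begins glutathione synthesis, measured -1.05, -1.19 and -0.30 in R-2HG and fell by 0.88 ± 0.20 (adjusted p = 0.005). Without R-2HG replicates 1 and 2 Gclc had -0.33 (adjusted p = 0.285), while Aldh18a1, Oat and Prodh were still called. Aldh4a1, which oxidises the product of proline breakdown to glutamate, had 0.19 ± 0.14 in R-2HG and was not called (adjusted p = 0.299).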
